A study of Mus musculus with 6 samples.

Results

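The 9 genes described here encode enzymes that make and break down heme: Alas1, Alas2, Alad, Uros, Urod, Cpox, Ppox, Fech and Hmox1. They were taken by name, from the array probes whose deposited accession belongs to one of these symbols. That gave 14 probes of 9 genes, out of 27412 genes and unnamed features tested in all. RNA of 6 mouse liver tumours (hepatocellular carcinoma, HCC), all on a C57BL/6 background, was hybridised to Agilent arrays of 1 colour, a separate array for each tumour, with 2 tumours in each of 3 groups. Tumours called Epcam-derived with CLC and Epcam-derived without CLC came from Epcam-AID mice that had received tamoxifen and then a diet with 0.1% DDC over 8 months. Tumours called Albumin-derived without CLC came from Alb-AID mice killed at 90 weeks of age, for which the labels name neither DDC nor tamoxifen. The labels expand neither CLC nor AID, say which cells carry AID only through the names of the lines, and give no age for the Epcam-AID mice and no sex. Origin, diet and tamoxifen therefore differ together between the Epcam-derived and the Albumin-derived tumours and cannot be told apart, and there was no tumour of an Epcam-AID mouse without DDC.

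Heme is an iron-bearing ring that is built partly in the mitochondrion and partly in the cytosol, and the liver makes much of it for cytochromes P450. Alas1, the housekeeping form of 5-aminolevulinate synthase, sets the pace of the pathway in hepatocytes and is held down by heme itself, while Alas2 is the form of developing red cells. DDC gives rise to an N-methylated porphyrin that blocks ferrochelatase, the product of Fech, which puts iron into the finished ring, and DDC feeding is a standard way to cause a porphyria in mice.

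The window before the start site of each synthase gene is shown because the pair share a reaction and differ in their known regulation. Both sequences are 250 bases upstream of the most upstream start in RefSeq on GRCm38.p6, at chr9:106247955-106248204 on the minus strand for Alas1 and chrX:150547167-150547416 on the plus strand for Alas2. Capitals in Alas2 mark a match to AGATAA, the letters of GATA factors, read on the opposite strand.
Alas1 upstream: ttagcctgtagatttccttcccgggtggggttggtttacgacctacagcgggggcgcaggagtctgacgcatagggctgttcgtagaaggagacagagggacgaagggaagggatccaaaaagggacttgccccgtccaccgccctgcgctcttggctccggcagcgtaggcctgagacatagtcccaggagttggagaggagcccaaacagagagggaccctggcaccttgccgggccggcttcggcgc
Alas2 upstream: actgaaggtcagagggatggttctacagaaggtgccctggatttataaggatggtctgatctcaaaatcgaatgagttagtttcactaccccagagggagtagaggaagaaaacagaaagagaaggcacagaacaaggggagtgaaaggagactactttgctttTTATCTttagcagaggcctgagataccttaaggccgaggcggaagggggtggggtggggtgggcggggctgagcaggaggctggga
A further stretch of Alas1, 30 bases at chr9:106247906-106247935 on the minus strand, begins after that most upstream start. It holds in capitals a match on both strands to the letters of the factor NRF1. These letters are GCGCA and GCGC with any 1 base between them.
Alas1 after the start: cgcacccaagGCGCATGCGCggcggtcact
Windows of 250 bases before to 50 bases after a start were searched on both strands for 7 of the 9 genes. Fech and Hmox1 were not searched. The NRF1 letters were in those of Alas1, which held another match that begins at the most upstream start itself, and in that of Uros, against 4.6% of all 32851 windows. Relative to another start of Alas1, further downstream, the same matches begin at -224 and -195 and so lie before it. The GATA letters were in those of Alas2 and Cpox, against 11.2% of windows. The letters TGACNNNGC of an antioxidant response element, found in 12.4% of windows, were in none of the windows searched, which did not include Hmox1. A match is only a run of letters, and no match says only that the letters are not in that window.

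Levels are given as scaled signal, the processed intensity of a probe divided by the 75th percentile of its array. Differences are of the log2 of that signal, with the standard error (SE) of a limma fit to all 6 arrays and p-values adjusted by Benjamini-Hochberg over the 27412 features, at a threshold of 0.05. Signals of different probes are not set against each other. Cyp2b13, Cyp4a14, Slc4a1, Timd4 and Krt19 were above background in only 1 of the 2 tumours of some group, and the measured value was used there. A probe was kept where both tumours of a group were above background. Cyp2b13 was thus kept only through the Albumin-derived group, and Cyp4a14 and Timd4 only through the group with CLC. Slc4a1 and Krt19 were kept only through the Epcam-derived groups. The 75th percentile of signal was 315 to 488 on Epcam-derived arrays and 285 to 306 on Albumin-derived arrays, the share of probes well above background was 52.0% to 64.6%, and no array had a saturated spot. The arrays lay on 2 slides, with both Albumin-derived tumours and replicate 1 with CLC on slide 1 and the other 3 tumours on slide 2. Replicate 1 with CLC and replicate 1 without CLC had no Eif2s3y signal above background and high Xist, whereas the other 4 arrays had Y-linked signal. Uty, another Y-linked gene, was above background in replicate 1 with CLC as well, and Xist in Albumin-derived replicate 1. Nothing in the labels says that the replicates share more than a group, so the spread between them may be biological or technical. In bulk tumour RNA, fewer cells of a type and less RNA per cell cannot be told apart.

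Alas1 had the largest difference of the 9 enzymes between the Epcam-derived and the Albumin-derived tumours. Its scaled signal was 142 and 78.3 with CLC, 77.8 and 103 in the Epcam-derived pair without CLC, and 31.1 and 32.5 in Albumin-derived tumours. All 4 Epcam-derived tumours lay above both Albumin-derived ones, and the Epcam-derived groups overlapped each other. On the log2 scale Alas1 averaged 6.60 ± 0.41 (SD, n = 4) in Epcam-derived tumours and 4.99 ± 0.05 (SD, n = 2) in Albumin-derived tumours. The difference was 1.61 ± 0.32 (SE; 95% confidence interval 0.82 to 2.40), a fold of 3.05, and it did not pass the threshold (limma, adjusted p = 0.079). Among all features, 4.02% were at least that much higher in Epcam-derived tumours.

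The Alas1 difference was alike on its other probes. The 3 probes of Alas1 gave folds of 3.02, 3.05 and 3.52, with log2 differences of 1.59 ± 0.37, 1.61 ± 0.32 and 1.81 ± 0.34 (SE). None of the 3 passed over the 34772 probes tested singly (limma, adjusted p = 0.1, 0.0786 and 0.0729). Fits within 1 slide hold a lone tumour in one arm and 1 residual degree of freedom, so their SE rests on the other pair and on limma's prior over all features, and the lone tumour is assumed to vary like that pair. Within slide 1, where replicate 1 with CLC stood against both Albumin-derived tumours, the difference of Alas1 was 2.16 ± 0.29 (adjusted p = 0.106), and a fit with the slide as a block gave 2.26 ± 0.38 (adjusted p = 0.276). With the 4 arrays that had Y-linked signal it was 1.50 ± 0.26 (adjusted p = 0.157). Over 20 alternatives the difference ranged between 1.40 and 2.26 and the adjusted p between 0.0432 and 0.276, and it passed in 2 of them, normexp background correction (1.74, adjusted p = 0.0432) and the authors' table (1.93, adjusted p = 0.048).

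**Figure D1:**
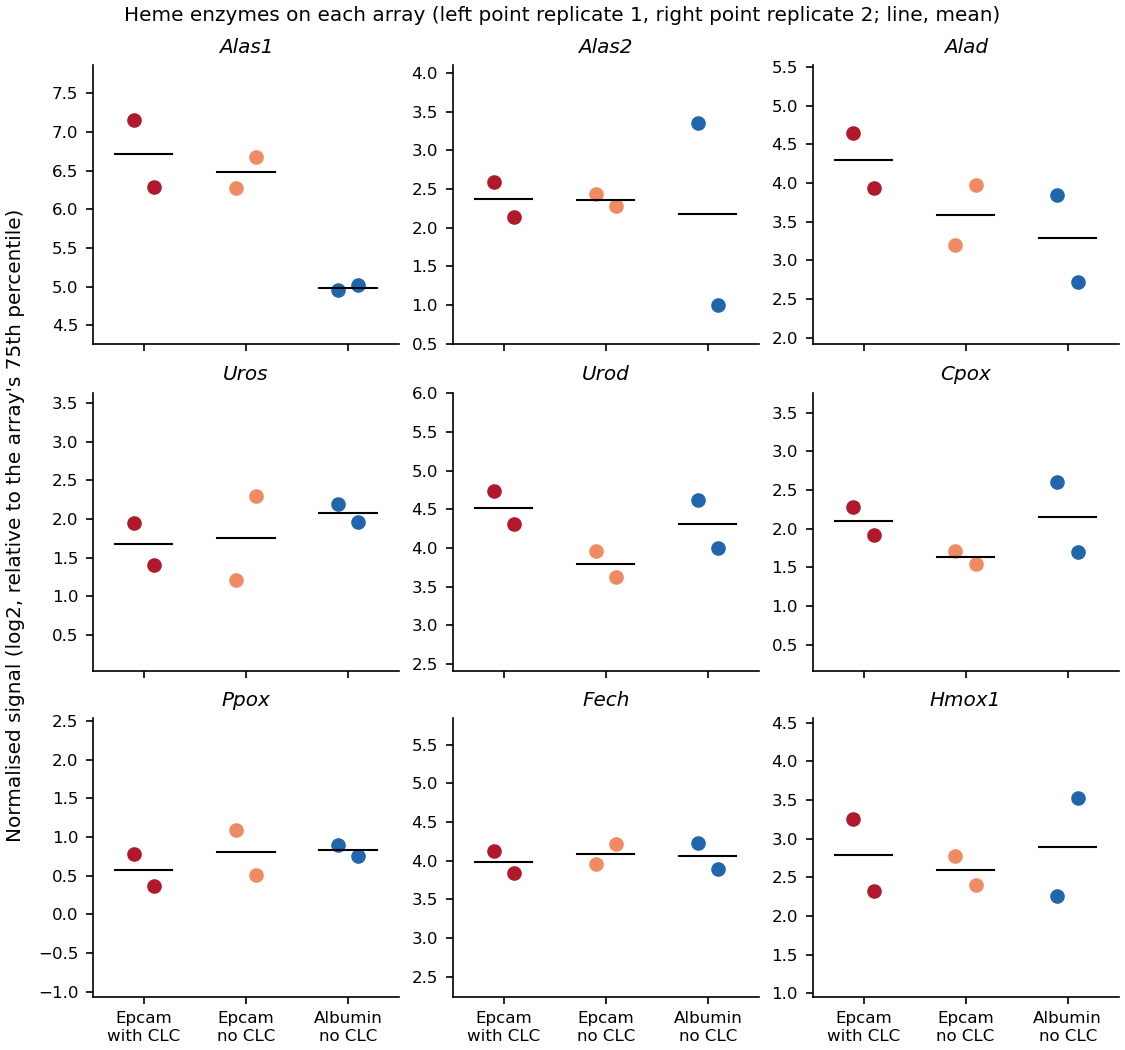
Normalised log2 signal of each heme enzyme on each of the 6 arrays, relative to the array's 75th percentile, by group from Epcam-derived with CLC to Albumin-derived. Points are tumours, with replicate 1 on the left, lines are group means, and every panel spans the same range of log2 units around its own mean. Alas1 is the panel in which all 4 Epcam-derived tumours lie above both Albumin-derived tumours, while the 6 values of Fech lie close together.

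Alas2, the synthase of developing red cells, differed chiefly between the Albumin-derived replicates. Its scaled signal was 6.04 and 4.40 with CLC, 5.42 and 4.84 in the Epcam-derived pair without CLC, and 10.2 and 2.00 in Albumin-derived tumours. The Albumin-derived tumours were the highest and the lowest of the 6, so that the groups overlapped. The log2 difference was 0.19 ± 0.65 (SE; limma, adjusted p = 0.887). It was 1.36 ± 0.35 without Albumin-derived replicate 1 and -0.99 ± 0.35 without Albumin-derived replicate 2, so the choice of a single tumour turned its direction.

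Of the 8 measured red cell genes 7 were higher in Epcam-derived tumours, with a median of 0.48 and 0 passed, against 0.814% of all features. The summed scaled signal of these 8 markers, out of 15 listed, was 1133 and 145 with CLC, 1334 and 137 in the Epcam-derived pair without CLC, and 382 and 262 in Albumin-derived tumours. The alpha globin gene Hba-a1, whose copy Hba-a2 has a nearly identical sequence, had a normalised log2 signal of 9.02 and 6.02 with CLC, 9.14 and 5.93 without CLC, and 7.48 and 6.92 in Albumin-derived tumours. The highest globin values fell on the replicates 1 of the Epcam-derived groups, which are also the tumours without Eif2s3y signal, whereas Alas2 was highest in Albumin-derived replicate 1. Within each group, Alas2, Hba-a1 and Hbb-bt were all higher in replicate 1 than in replicate 2, as were Hba-a2, Hbb-b1 and Hbb-b2. The other measured red cell genes did not all run so. From replicate 1 to replicate 2, Slc4a1 was -4.44 and -3.97 in Albumin-derived tumours, Klf1 -3.45 and -3.19 without CLC, and Ermap 0.54 and 0.56 with CLC. Hbb-bt, a beta globin, differed by 0.98 ± 1.28 between Epcam-derived and Albumin-derived tumours, Hbb-b2 by 0.81 ± 1.23 and the band 3 gene Slc4a1 by 1.51 ± 1.24, none past the threshold (limma). Klf1, a transcription factor of red cell precursors, differed by -0.23 ± 0.23 on the probe that stands for it and by 0.23 ± 0.59 on its other probe. Epb42, Gata1 and Rhag did not pass the filter on dim probes, and Hbb-bs and Ahsp had no probe under their symbols. The part of red cells in the Alas2 values was not tested.

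**Figure D2:**
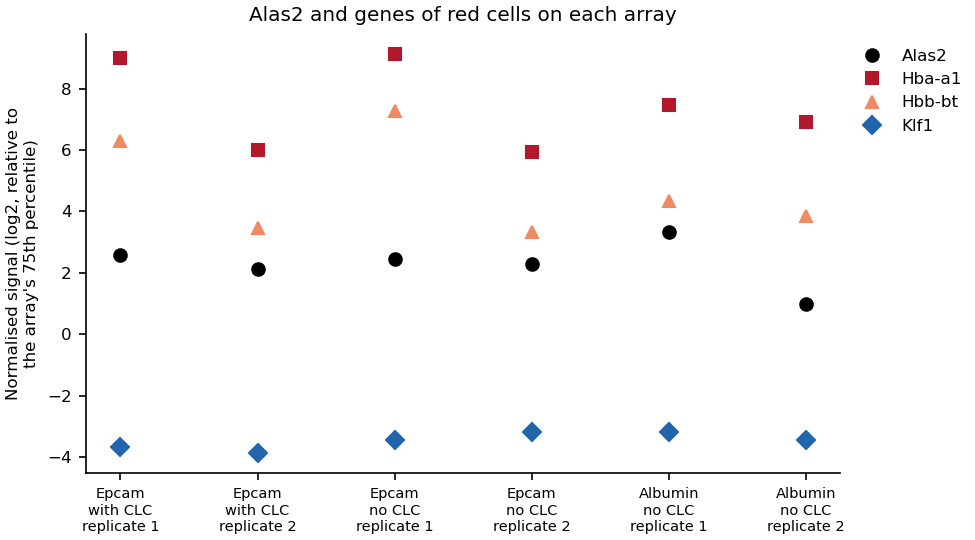
Normalised log2 signal of Alas2 and 3 genes of red cells, the globins Hba-a1 and Hbb-bt and the factor Klf1, on each of the 6 arrays from Epcam-derived with CLC to Albumin-derived. The globins are highest in replicate 1 of both Epcam-derived groups, at 9.02 and 9.14 for Hba-a1, whereas Alas2 is highest in Albumin-derived replicate 1.

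As with both synthase genes, no step after the synthase gave a difference past the threshold. Alad, which joins molecules of aminolevulinate into porphobilinogen, had a scaled signal of 25.1 and 15.3 with CLC, 9.19 and 15.7 in the Epcam-derived pair without CLC, and 14.4 and 6.62 in Albumin-derived tumours. Replicate 1 with CLC was the highest and Albumin-derived replicate 2 the lowest, and the groups overlapped. The log2 difference of Alad was 0.66 ± 0.45 (SE; 95% confidence interval -0.45 to 1.76; limma, adjusted p = 0.428), and without Albumin-derived replicate 2 it was 0.10 ± 0.49.

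Uros closes the ring of the pathway. Its scaled signal was 3.88 and 2.64 with CLC, 2.31 and 4.90 in the Epcam-derived pair without CLC, and 4.56 and 3.90 in Albumin-derived tumours. The highest and the lowest values were both in Epcam-derived tumours without CLC. The log2 difference was -0.36 ± 0.38 (SE; 95% confidence interval -1.30 to 0.58; limma, adjusted p = 0.606), and the other probes of Uros gave -0.81 ± 0.46 and -0.47 ± 0.33, of which the second was well above background on 5 of the 6 arrays.

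Urod removes carboxyl groups from the side chains of the ring, and Cpox and Ppox oxidise the product on the way to protoporphyrin. Urod had a scaled signal of 26.7 and 19.8 with CLC, 15.6 and 12.4 in the Epcam-derived pair without CLC, and 24.6 and 16.0 in Albumin-derived tumours. Cpox had 4.85 and 3.79 with CLC, 3.27 and 2.92 without CLC, and 6.09 and 3.24 in Albumin-derived tumours. For both genes the 2 tumours with CLC lay above the 2 Epcam-derived tumours without CLC, and the Albumin-derived tumours overlapped at least one of those groups. Ppox had 1.71 and 1.29 with CLC, 2.13 and 1.42 without CLC, and 1.86 and 1.68 in Albumin-derived tumours, which lay within the Epcam-derived range. Between Epcam-derived and Albumin-derived tumours the log2 differences were -0.15 ± 0.29 for Urod, -0.29 ± 0.33 for Cpox and -0.14 ± 0.28 for Ppox (SE; limma, adjusted p = 0.79, 0.639 and 0.797). The other probe of Ppox gave -0.12 ± 0.28.

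Fech, the enzyme that DDC blocks, had the smallest difference of the 9. Its scaled signal was 17.4 and 14.2 with CLC, 15.5 and 18.5 in the Epcam-derived pair without CLC, and 18.7 and 14.9 in Albumin-derived tumours. The 3 groups overlapped, and the 6 values covered 0.39 on the log2 scale, the narrowest range of the 9 genes. The log2 difference was -0.03 ± 0.24 (SE; limma, adjusted p = 0.949), and its 95% confidence interval of -0.63 to 0.57 leaves room for a change of either sign. With slide as a block it was 0.18 ± 0.39 and within slide 1 it was 0.06 ± 0.33. The array measures Fech transcript and says nothing of the enzyme's activity.

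Hmox1, heme oxygenase 1, opens the heme ring to biliverdin and is induced by heme and by oxidative stress. Its scaled signal was 9.56 and 4.99 with CLC, 6.86 and 5.29 in the Epcam-derived pair without CLC, and 4.80 and 11.53 in Albumin-derived tumours. As with Alas2, the Albumin-derived tumours were the lowest and the highest of the 6, here with replicate 2 on top. The log2 difference was -0.21 ± 0.47 (SE; 95% confidence interval -1.36 to 0.95; limma, adjusted p = 0.823). It was -0.84 ± 0.48 without Albumin-derived replicate 1 and 0.43 ± 0.48 without Albumin-derived replicate 2, with slide as a block it was 0.50 ± 0.69, and within slide 1 it was 0.36 ± 0.66. Macrophages are a cell type rich in heme oxygenase. The summed scaled signal of 10 macrophage markers was 134 and 72.6 with CLC, 52.3 and 85.2 without CLC, and 41.3 and 53.5 in Albumin-derived tumours. Their median log2 signal was 1.78 and 1.76 with CLC, 0.82 and 2.19 without CLC, and 0.50 and -0.10 in Albumin-derived tumours. Within the Albumin-derived pair the sum was thus higher in replicate 2 and the median in replicate 1. The part of macrophages in the Hmox1 values was not tested.

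By count, 0 of the 9 enzymes passed the threshold between Epcam-derived and Albumin-derived tumours, against 0.814% of all features (223 of 27412, with 69 or 0.252% higher and 154 or 0.562% lower). At an unadjusted p under 0.05 the count was 1 of 9, Alas1, against 21.7% of features. Alas1 was also the 1 enzyme of 9 whose groups did not overlap, against 35.8% of features, 17.6% higher and 18.2% lower. The median log2 difference of the 9 was -0.14, with 3 higher and 6 lower in Epcam-derived tumours, beside a median of 0.03 over all features. The count of calls moved with single arrays: fits without replicate 1 and without replicate 2 with CLC called 9 and 17 features, and fits without any other single array called 0 (limma, with 4195 to 5714 at an unadjusted p under 0.05). The authors' table gave 483 higher and 205 lower calls, with a median of 0.35 over all features, and relative to that median the difference of Alas1 was 1.58 and that of Fech -0.07, as they were relative to the median of 0.03 in the main scaling. With normexp the median over all features was -0.14, and relative to it the difference of Alas1 was 1.87 and that of Fech 0.16.

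**Figure D3:**
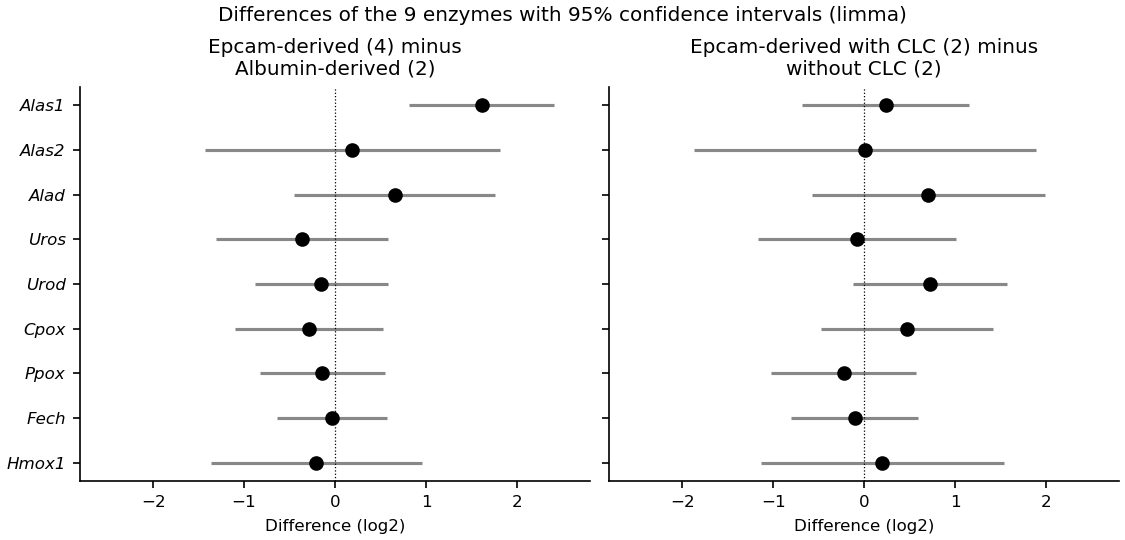
Log2 differences of the 9 enzymes (points) with 95% confidence intervals (lines) from the limma fit, for Epcam-derived minus Albumin-derived tumours on the left and Epcam-derived tumours with minus without CLC on the right. The interval of Alas1 on the left runs between 0.82 and 2.40, and all other intervals in both panels cover 0. The intervals are not adjusted for the number of features.

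**Figure D4:**
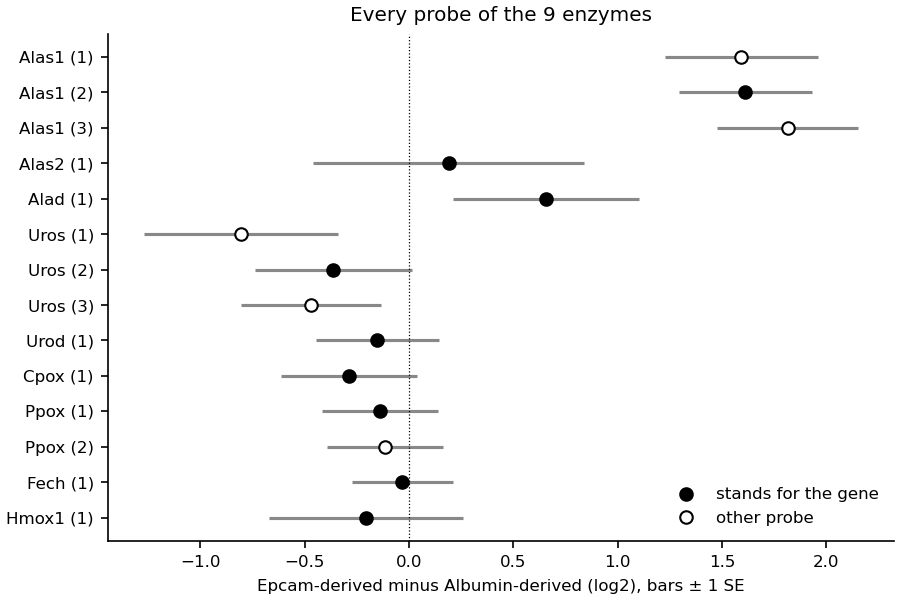
Log2 difference of Epcam-derived minus Albumin-derived tumours for each of the 14 probes of the 9 genes, with bars of 1 SE. Filled points are the probes that stand for a gene. The 3 probes of Alas1 lie between 1.59 and 1.81, and the 3 probes of Uros between -0.81 and -0.36.

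Setting the Epcam-derived tumours labelled with CLC against those labelled without CLC asks which enzymes go with that label under DDC. Of the 9 enzymes 0 passed, as did 0% of all features (0 of 27412 by limma, with 954 or 3.48% at an unadjusted p under 0.05, where 0 enzymes were). Urod differed by 0.73 ± 0.34 (SE; 95% confidence interval -0.12 to 1.57), Alad by 0.71 ± 0.51 and Cpox by 0.47 ± 0.38, and adjusted p was 0.999 for each. The remaining differences were 0.24 ± 0.37 for Alas1, 0.20 ± 0.54 for Hmox1, 0.01 ± 0.75 for Alas2, -0.07 ± 0.44 for Uros, -0.11 ± 0.28 for Fech and -0.23 ± 0.32 for Ppox. Groups did not overlap for 2 of 9 enzymes, Urod and Cpox, both higher, against 30.1% of features, 10.3% higher and 19.8% lower. The median of the 9 was 0.20, with 6 higher and 3 lower, beside -0.06 over all features. Within slide 2, where replicate 2 with CLC stood against both tumours without CLC, Urod differed by 0.51 ± 0.40, Alad by 0.35 ± 0.52, Cpox by 0.29 ± 0.38 and Alas1 by -0.19 ± 0.42. Without replicate 2 with CLC the fit called 268 features, 262 of them higher, and 0 of the 9 enzymes.

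Genes that serve the pathway from outside were taken from lists of partners, transporters, regulators, targets and users of heme. Among 24 partners of heme synthesis and heme transporters, all measured, 12 were higher and 12 lower in Epcam-derived tumours, and the median was -0.01. Of the 24, 0 passed, against 0.814% of all features. The largest difference was that of Flvcr2, a transporter of the heme exporter family, at -1.91 ± 0.46 (SE; limma, adjusted p = 0.109). Its log2 signal was -1.02 and -1.79 with CLC, -0.79 and -1.61 without CLC, and 1.18 and 0.03 in Albumin-derived tumours, with no overlap. Abcg2, which exports porphyrins from the cell, differed by 1.41 ± 0.53 (adjusted p = 0.212), and Slc48a1, which moves heme out of the lysosome, by 1.03 ± 0.26 (adjusted p = 0.112) and, on its other probe, by 1.70 ± 0.24. With against without CLC, 15 were higher and 9 lower, 0 passed, and the largest difference was 0.50 ± 0.41 for Pgrmc2, a heme-binding membrane protein.

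The breakdown side held the only genes of these lists that passed. Blvrb, a biliverdin and flavin reductase, rose in Epcam-derived tumours: its log2 signal was 5.29 and 5.66 with CLC, 5.63 and 6.44 without CLC, and 3.24 and 2.85 in Albumin-derived tumours. All 4 Epcam-derived values lay above both others, and the difference was 2.71 ± 0.32 (SE; limma, adjusted p = 0.0422), a fold of 6.55. Abcc3, which exports conjugated bilirubin and bile acids into the blood, rose as well, with 5.45 and 5.25 with CLC, 5.47 and 6.38 without CLC, and 2.58 and 3.07 in Albumin-derived tumours. Its difference was 2.81 ± 0.34 (adjusted p = 0.0422), a fold of 7.01, and 3.12 ± 0.31 on its other probe. Leaving out any single array ended both calls (adjusted p at least 0.073), and so did slide as a block (2.43 ± 0.53 for Blvrb and 2.96 ± 0.58 for Abcc3, adjusted p = 0.299 and 0.29) and slide 1 alone (2.24 ± 0.34 and 2.62 ± 0.37, adjusted p = 0.126 and 0.113). Neither passed once dim probes were kept in (limma, adjusted p = 0.143 for both), with an Epcam-derived group alone (0.0976 with CLC and 0.0586 without CLC, for both) or on the 4 arrays with Y-linked signal (0.131 for both). Over 20 alternatives Blvrb passed in 7 and ranged between 2.24 and 3.03, and Abcc3 passed in 6 and ranged between 2.52 and 3.13.

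In the list of heme scavenging and bilirubin handling, 5 of 10 measured genes were higher and 5 lower, and the median was -0.03. Of the 10, 2 passed upward and 0 downward, against 0.252% and 0.562% of all features. Groups did not overlap for 4 higher and 3 lower genes, against 17.6% and 18.2% of features. Cd163, the macrophage receptor for haemoglobin bound to haptoglobin, was not well above background in either Albumin-derived tumour. It thus passed the filter only through the Epcam-derived groups. Its fitted difference, which uses those dim values, did not pass the threshold (limma, adjusted p = 0.0974). As a bound, it was at least 2.99-fold higher in Epcam-derived tumours. That bound sets the mean of the bright tumours against a floor in the dim ones, namely the dimmest signal still above background on that array or the probe's own signal where it is higher. Slco1b2, which takes bilirubin up from the blood, had the largest difference with against without CLC in this list, 1.99 ± 0.36 (adjusted p = 0.94). Its log2 signal was 5.38 and 4.52 with CLC, 2.82 and 3.10 in the Epcam-derived pair without CLC, and 4.57 and 4.58 in Albumin-derived tumours. The tumours with CLC thus lay apart from the Epcam-derived ones without it, and near the Albumin-derived ones. Ugt1a1, which conjugates bilirubin, had no probe under that symbol.

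Among 16 regulators of heme genes, 9 were higher and 7 lower in Epcam-derived tumours, with a median of 0.12. Of the 16, 0 passed, against 0.814% of all features. Ppargc1a, a coactivator that raises Alas1 in fasting mouse liver, differed by 2.07 ± 0.42 (SE; limma, adjusted p = 0.0823) and by 2.70 ± 0.51 on its other probe. Its log2 signal was -0.87 and -0.49 with CLC, -1.03 and 0.19 without CLC, and -2.30 and -2.94 in Albumin-derived tumours, with no overlap between the Epcam-derived and the Albumin-derived tumours. Egr1, an immediate early transcription factor, differed by -3.78 ± 0.87 (adjusted p = 0.1), and its values among Epcam-derived tumours spread between -0.45 and 2.35. Aco1, which as an iron regulatory protein binds the messenger of Alas2, differed by 0.79 ± 0.37 (adjusted p = 0.29). With against without CLC, 6 were higher and 10 lower, 0 passed, and the largest were -0.60 ± 0.39 for the small Maf factor Mafg and -0.53 ± 1.03 for the nuclear receptor Nr1i3.

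Hmox1 is often read together with other targets of NRF2, the oxidative stress factor, and 6 of those 7 were higher in Epcam-derived tumours, with a median of 2.02. None of the 7 passed, against 0.814% of all features, 4 were at an unadjusted p under 0.05, against 21.7%, and 4 had groups that did not overlap, against 35.8%. Slc7a11, a cystine importer, differed by 4.34 ± 1.19 (SE; limma, adjusted p = 0.132), Nqo1, a quinone reductase, by 2.75 ± 0.41 (adjusted p = 0.0569) and Gclc, the catalytic subunit of the enzyme that begins glutathione synthesis, by 2.37 ± 0.47 (adjusted p = 0.0787). Osgin1, an oxidative stress-induced growth inhibitor, ran the other way at -1.19 ± 0.52, and Hmox1 stood at -0.21 ± 0.47. Whether Hmox1 differs from the other targets was not tested. With against without CLC, 1 of the 7 was higher and 6 lower, with 0 passed.

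Among 16 enzymes that use heme or serve those that do, 6 were higher and 10 lower in Epcam-derived tumours, and the median was -0.37. Of the 16, 0 passed, against 0.814% of all features. The largest differences were in Cyp2b9, Cyp2b13 and Cyp2b10, related cytochromes P450 whose probes may share target sequence, at -5.54 ± 3.40, -5.24 ± 2.81 and -4.42 ± 2.92 (SE). Cyp2b9 had a log2 signal of 3.64 and -5.27 with CLC, 4.38 and -5.24 without CLC, and 5.12 and 4.70 in Albumin-derived tumours. The low values were those of the replicates 2, the Epcam-derived tumours with Y-linked signal, and the replicates 1 lay near the Albumin-derived tumours. With against without CLC the largest were 2.37 ± 1.34 for Cyp4a14, a fatty acid hydroxylase not above background in the Albumin-derived tumours, and 2.04 ± 0.35 for Cyp2e1, an ethanol-oxidising form (adjusted p = 0.999 and 0.925). Cyp4a14 passed the filter on dim probes only through the group with CLC. Its log2 signal was -0.90 and -4.84 with CLC and -4.23 and -6.26 without CLC, so these groups overlapped. Alas1 had no value in an Epcam-derived tumour at or under those of the Albumin-derived ones. Lack of overlap did not set it apart from these 16 genes. Among them 4 were without overlap upward and 4 downward, Cyp2b9 and Cyp2b13 in the latter, against 17.6% and 18.2% of all features. Cyp1a1 and Cyp4a14, among the higher, and Cyp2b13, among the lower, passed the filter on dim probes only through groups where they were high. Their lack of overlap is thus partly set by that filter.

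**Figure D5:**
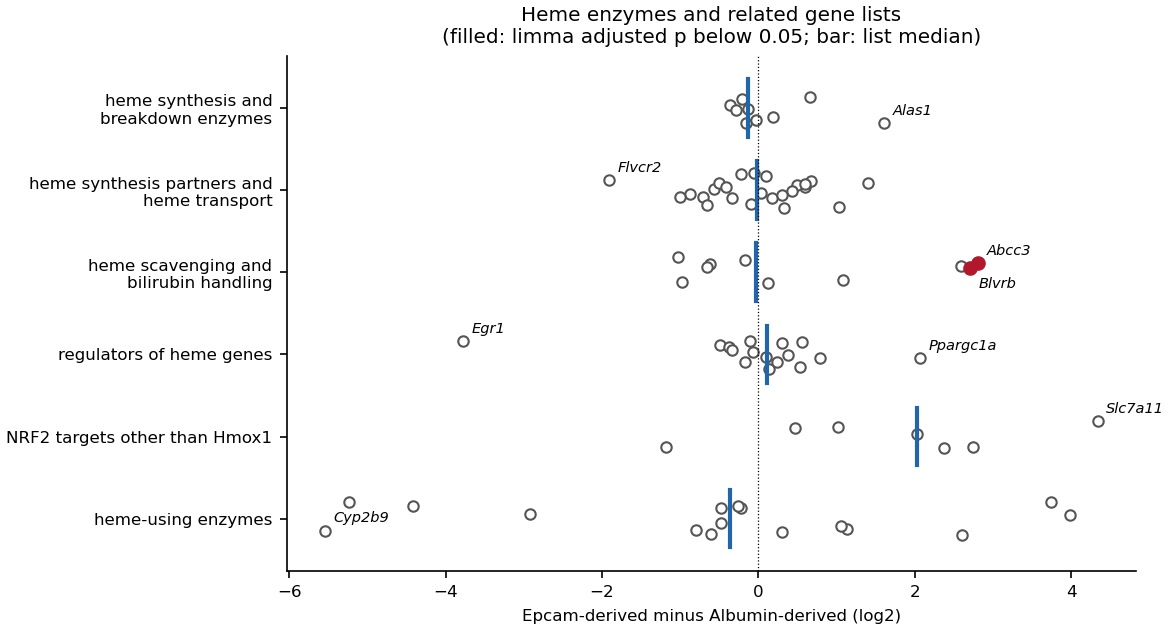
Log2 difference of Epcam-derived minus Albumin-derived tumours for each measured gene of the heme enzymes and of 5 related lists. Each point is a gene, blue bars are list medians and filled red points passed the limma threshold, which were Blvrb and Abcc3. Points of genes not above background in the Albumin-derived tumours, such as Cd163, show the fitted value and not a bound.

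Markers of cell types were read beside these values, and 0 of them passed in either comparison. Of all features, 0.814% passed between Epcam-derived and Albumin-derived tumours and 0% with against without CLC. All 10 hepatocyte markers were lower in Epcam-derived tumours, with a median of -0.67 and 0 passed, and their summed scaled signal was 2695 and 2029 with CLC, 2575 and 2051 without CLC, and 4392 and 3839 in Albumin-derived tumours. Hepatocyte genes were above background on all 6 arrays. The largest differences were -1.96 ± 0.31 for Tat, a tyrosine-degrading enzyme, -1.57 ± 0.34 for the fibrinogen gene Fgb and -1.22 ± 0.29 for the plasma carrier Ttr (SE; limma, adjusted p = 0.0609, 0.0924 and 0.109), and Cps1, a urea cycle enzyme, differed by -1.64 ± 0.33 with against without CLC (adjusted p = 0.999). Of the 10 macrophage markers 9 were higher (median 1.19, 0 passed), and of the 8 bile duct cell markers 5 were (median 0.64, or 0.42 with Krt7 at its bound, 0 passed). Beside Cd163, the largest among macrophage markers were 1.85 ± 1.13 for the Kupffer cell lectin Clec4f and 1.70 ± 0.97 for the complement receptor Vsig4. With against without CLC they were 2.28 ± 0.82 for the scavenger receptor Marco and 1.97 ± 0.81 for Timd4. Timd4 passed the filter on dim probes only through the group with CLC, where it was highest, so its difference is partly set by that filter. Among bile duct cell markers Spp1, which encodes osteopontin, differed by 2.11 ± 0.90, and the keratin Krt19 by 1.47 ± 0.43. For both, Epcam-derived and Albumin-derived tumours overlapped. Krt19 had a log2 signal of -1.59 and -1.37 with CLC, -4.21 and -3.87 without CLC, and -4.94 and -3.52 in Albumin-derived tumours. Krt7, another keratin, was not above background in Albumin-derived tumours, and the Epcam-derived mean was at least 1.18-fold higher. Its groups overlapped, with a log2 signal of -2.95 and -4.24 with CLC, -5.22 and -5.22 without CLC, and -5.70 and -4.76 in Albumin-derived tumours. With against without CLC, Tspan8 differed by 2.75 ± 1.09 and Krt19 by 2.56 ± 0.50. With against without CLC, 7 of 8 bile duct cell markers were higher (median 1.41, 0 passed), with sums of 61.2 and 111 with CLC, 44.7 and 30.2 without CLC, and 5.93 and 39.1 in Albumin-derived tumours. Of the bile duct cell markers 5 of 8 were above background on all 6 arrays. Summed hepatocyte signal was lower in Epcam-derived than in Albumin-derived tumours, while Alas1, a gene of all cells that is abundant in hepatocytes, was higher. Among the 4 Epcam-derived tumours this order did not hold. There replicate 1 with CLC had both the highest Alas1 signal (142) and the highest hepatocyte sum (2695). The part of cell make-up in the Alas1 values was not tested.

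Genes whose log2 signal ran most like that of 3 enzymes over the 6 arrays were named by Pearson's r, as a description, since the 6 points share the same arrays. Candidates were the 6987 or 6988 named genes above background on all 6 arrays with a range of at least 1 on the log2 scale. For Alas1 they were Tkt, a transketolase of the pentose phosphate pathway (r = 0.996), Fkbp14 (0.993) and Dmpk (0.987). Tkt had a log2 signal of 6.57 and 5.72 with CLC, 5.89 and 6.04 without CLC, and 4.42 and 4.46 in Albumin-derived tumours, so that, as for Alas1, replicate 1 with CLC was the highest. For Hmox1 they were Ttll3 (r = 0.993), Lgals3, the galectin 3 gene (0.980), and Csf2rb2 (0.957). Lgals3 had a log2 signal of 6.01 and 4.25 with CLC, 5.04 and 3.80 without CLC, and 3.71 and 6.34 in Albumin-derived tumours, again with the extremes in the Albumin-derived pair. For Fech they were Appbp2os (r = 0.987), Rab10os (0.968) and Rmdn1 (0.960), although the whole range of Fech was 0.39. With 6 arrays r is imprecise, and nothing on shared function or control is read from it.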

How the data were processed

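Per the file headers, the 1-colour arrays were read with Agilent Feature Extraction 11.5.1.1 and their design is annotated on mm9. The deposited processed signal is, by the same headers, an intensity after removal of background and spatial trend, with arrays left unscaled. The authors' table is that intensity times 1 factor per array (1.64 to 2.42, column medians 55.0 to 80.0), so it is linear, not centred and of the same direction, while what set the factors stays unknown.

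Control and outlier spots were left out, the 75th percentile of each array was subtracted from log2 signal, spots of a probe were averaged, and a probe was kept where a group had it well above background in both its tumours (34777 of 56605). Accessions were named through a RefSeq gene table of GRCm38.p6, used for names only, and 32994 probes received a symbol. The probe with the highest mean stood for a gene, and 15868 of the 27412 features had a symbol. Differences were fitted with limma 3.58.1 in R 4.3.3 (data.table version 1.17.8, jsonlite 2.0.0) to all 6 arrays, with 3 residual and 2.62 prior degrees of freedom. The fit was tested on simulated data. Files without a mean pixel signal meant that normexp (offset 50) used median signals. Other alternatives were quantile and median scaling, the authors' table, filters on dim probes, probe means, slide or replicate as a block, each Epcam-derived group alone, and each array left out. Fits with Y-linked signal as a term, or on the 4 arrays that have it, and with every probe alone were chosen after seeing the data.

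Besides the 9 enzymes, each of 9 lists (114 distinct genes, 106 measured) has named genes: those past the threshold, the 3 with the largest difference in the first comparison and the 2 in the second. The enzymes and lists were chosen with earlier results of these data known. Some genes of the lists are not reported here by name. Hba-a1 was chosen after its values were seen. Replicate numbers were not taken to pair the tumours, and deviations from group means correlated at 0.23, 0.062 and -0.16 between groups. These correlations cannot show that replicates of a number share nothing. In both Epcam-derived groups replicate 1 lacked Eif2s3y signal above background and replicate 2 had it. The number of arrays limits the precision.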

Additional observations from a re-analysis of the deposited data

How the results depend on the processing

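Alas1 was higher in Epcam-derived tumours under all 20 alternatives, Alad under the same 20, and Blvrb and Abcc3 likewise, while with against without CLC Urod and Cpox were higher in all 18. The count of the 9 enzymes past the threshold stayed at 0 except for 1, Alas1, with normexp and 1, Alas1, with the authors' table. Calls among all features in Epcam-derived against Albumin-derived tumours, 223 in the report, were 369 with normexp, 688 with the authors' table, 7 with no filter on dim probes, 131 with a filter on all 6 arrays, 0 with slide as a block (2775 at an unadjusted p under 0.05), 67 with the group without CLC alone, 17 with the group with CLC alone and 0 on the 4 arrays with Y-linked signal (6123 unadjusted). They were 0 to 17 without single replicates, and 0 to 268 in the comparison by CLC, with the lone tumour of a group assumed to vary like the other groups. With the replicate block the count was 67, Alas1 stayed at 1.61 (adjusted p = 0.122), and Blvrb and Abcc3 no longer passed (0.0695 and 0.0647).

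Differences that passed in no fit of their comparison changed sign in several places, and each such value was under 3 of its SE from 0. Epcam-derived minus Albumin-derived, Fech was 0.023 with normexp, 0.11 with quantile scaling, 0.28 with the authors' table, 0.18 with slide as a block, 0.057 within slide 1 and 0.020 with the group without CLC alone. Urod was 0.0097, 0.16, 0.17 and 0.43 with quantile scaling, the authors' table, the slide block and slide 1, and 0.21 with the group with CLC alone. Hmox1 was 0.11, 0.50 and 0.36, with the authors' table, the slide block and slide 1. Cpox was 0.029 with the authors' table and 0.13 within slide 1, Ppox 0.18 with the authors' table and 0.17 with the slide block, and Uros 0.054 with the slide block. Without single replicates Alas2 ranged between -0.99 and 1.36, Urod between -0.46 and 0.16, Cpox between -0.74 and 0.17, Ppox between -0.28 and 0.0071, Fech between -0.20 and 0.13 and Hmox1 between -0.84 and 0.43.

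With minus without CLC, Alas1, Alas2 and Hmox1 were -0.19, -0.22 and -0.27 both in the slide block and within slide 2. On the 4 arrays with Y-linked signal Alas1, Alas2, Alad and Hmox1 were -0.39, -0.14, -0.036 and -0.084. Alas2 was -0.026 with normexp and Uros 0.076 with the mean of probes. Without single replicates Alas1 ranged between -0.19 and 0.67, Alas2 between -0.22 and 0.24, Uros between -0.62 and 0.47, Ppox between -0.52 and 0.065, Fech between -0.25 and 0.037 and Hmox1 between -0.27 and 0.67. Fewer tumours or other features entered the fits that leave out arrays or change the filter, and otherwise the cause was not tested.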
